A study of Homo sapiens and Mus musculus with 74 samples.

Results

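Selenoproteins carry the amino acid selenocysteine, and 10 of them were followed here through RNA-seq, Ribo-seq and disome-seq of mouse tissue: Gpx1, Gpx3, Gpx4, Selenop, Selenow, Selenom, Selenok, Selenot, Selenof and Txnrd1. They were picked by gene symbol out of the 55174 genes that have a transcript in the mouse count table, with 1 transcript standing for each gene, the one that encodes its longest protein. All 10 were found. The libraries came from kidney and brain of 10-week-old male C57BL/6J mice. WT mice were compared with Rpl41 KO mice (Rpl41-/-), from which CRISPR-Cas9 had removed the whole coding sequence of Rpl41, a very small ribosomal protein at the bridge between the ribosomal subunits. The loss was constitutive, so it affected all tissues of the KO mice. There were 3 WT and 3 KO libraries each of kidney RNA-seq, kidney Ribo-seq, kidney disome-seq, brain RNA-seq and brain Ribo-seq, and no KO was paired with a given WT mouse by the labels. RNA-seq measured poly(A) RNA. Ribo-seq sequenced ribosome-protected fragments (RPFs) left by single ribosomes, and disome-seq the longer fragments under a pair of adjacent ribosomes.

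Selenocysteine is encoded by UGA, which otherwise ends translation. A hairpin in the 3′ UTR (the SECIS element), its binding protein SECISBP2, the elongation factor EEFSEC and a dedicated tRNA let the ribosome insert selenocysteine there, and decoding at such a UGA is known to be slow and incomplete. Several of these enzymes use selenium to remove peroxides or reduce disulphides, the kidney is known for making the glutathione peroxidase of blood plasma, and the brain is known for holding on to selenium when it is scarce.

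An in-frame UGA comes with being a selenoprotein, but its place in the coding sequence was not used by the rule on gene symbols. The 10 transcripts hold 19 such codons. The 10 below are the first UGA of each transcript with 12 bases to either side, 5′ to 3′ in the sense of the mRNA and written as DNA. They were read from the GENCODE M21 transcripts (GRCm38), with the UGA itself in capitals, and they are shown because the place of this codon differs so much between members.
Gpx1: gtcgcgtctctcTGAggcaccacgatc
Gpx3: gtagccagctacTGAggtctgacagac
Gpx4: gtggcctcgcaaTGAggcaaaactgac
Selenop: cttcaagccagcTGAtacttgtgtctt
Selenow: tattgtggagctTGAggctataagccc
Selenom: acctgtggaggaTGAcagttgaatcgc
Selenok: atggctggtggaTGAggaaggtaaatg
Selenot: atttgtgtatccTGAgggtaccggcgg
Selenof: gaagtctgcggaTGAaaattggggagg
Txnrd1: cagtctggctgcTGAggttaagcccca

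The UGA was codon 47 of 201 in Gpx1 (chr9:108339451-108339453, plus strand), 73 of 226 in Gpx3 (chr11:54907256-54907258, plus) and 129 of 253 in Gpx4 (chr10:80054737-80054739, plus). It was codon 13 of 88 in Selenow (chr7:15920464-15920466, minus), 48 of 145 in Selenom (chr11:3516273-3516275, plus), 49 of 195 in Selenot (chr3:58585238-58585240, plus) and 93 of 162 in Selenof (chr3:144590645-144590647, plus). In contrast, it lay at the very end of the coding sequence in Selenok, as codon 92 of 94 (chr14:29973440-29973442, plus), and in Txnrd1, as codon 612 of 613 (chr10:82896037-82896039, plus). In Selenok 2 sense codons, and in Txnrd1 1, stand between the UGA and the stop. Codons are counted in the transcript with the longest protein. For Gpx4 that is 1 of 3 coding transcripts, and which of them these tissues use was not tested. Selenop had 10 UGA codons, at position 59 (chr15:3274848-3274850, plus) and then at 259, 277, 318, 330, 352, 366, 368, 375 and 377 of 380. The base after the UGA was G in 7 of the 9 members with a single UGA, A in Selenof and C in Selenom. In Selenop it was mostly another base, since over all 19 codons it was G in 9, C in 6, A in 3 and T in 1.

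**Figure D1:**
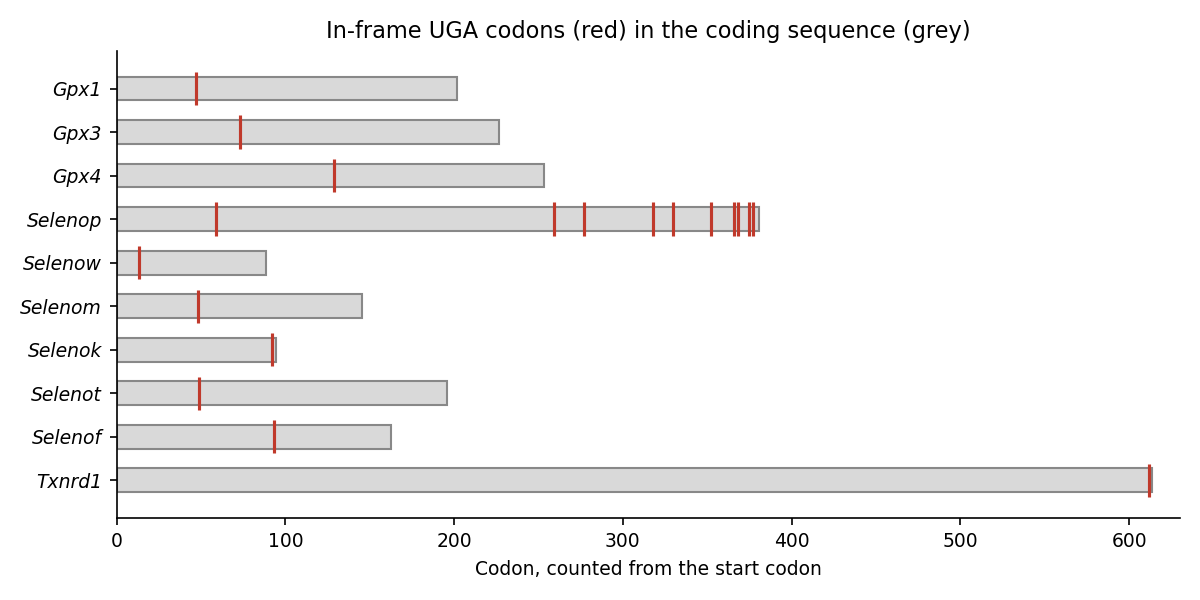
Coding sequence of each transcript (grey bar, in codons from the start codon, to scale) with its in-frame UGA codons as red lines. Selenop has 10 of them, while the single UGA of Selenok and of Txnrd1 lies at the far right end.

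Counts summed over transcripts ran from 84433838 to 123745890 per library for brain RNA, 44998381 to 55077048 for kidney RNA, 9498663 to 35881929 for brain RPFs, 1187636 to 3018963 for disomes and 11036643 to 42452425 for kidney RPFs. KO libraries held 3 to 8 reads of Rpl41 in kidney RNA-seq against 3695 to 7502 in WT, and 6 to 12 against 8981 to 12199 in brain. The tissue labels fitted their markers: 8 kidney tubule genes summed to 4242 to 4328 CPM in WT kidney RNA and 4.51 to 6.045 CPM in WT brain, and 8 brain genes to 2636 to 3226 CPM in WT brain and 10.3 to 14.6 CPM in WT kidney. KO kidney RNA-seq libraries 2 and 3 stood apart, with 1.76% and 1.67% of counts in mitochondrial rRNA against 0.436% to 0.962% in the other kidney RNA-seq libraries. KO kidney Ribo-seq library 1 was the shallowest of kidney Ribo-seq and lay apart from KO libraries 2 and 3 for several members.

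Levels are given in CPM scaled by TMM, that is, counts per library total (CPM) after scaling for library composition. In WT kidney RNA, Gpx3, the secreted glutathione peroxidase of plasma, dwarfed the other members. Its share of the CPM of all 10 was 81.9% to 84.8% in the WT kidney libraries and 0.852% to 1.26% in WT brain. Per kilobase of transcript, Gpx3 RNA stood at 6587 ± 1246 CPM (SD, n = 3) in WT kidney, followed by Gpx1 at 687 ± 209.5 and Selenop at 419 ± 32.7. The libraries of these 3 genes did not overlap, although the lowest for Gpx1 (458) lay close to the highest for Selenop (455). Gpx4 (94.9 ± 13.2) and Selenof (77.4 ± 5.60) came next and had overlapping ranges. Selenot (38.7 ± 3.16), Selenow (30.65 ± 9.38), Selenom (19.0 ± 4.35), Txnrd1 (14.0 ± 0.201) and Selenok (12.8 ± 2.20) were lowest, and among them neighbours in this order had overlapping ranges, except that Selenom lay above Txnrd1 in every library.

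The order in WT brain RNA was another one. Selenow, a small thioredoxin-fold protein, led with 307 ± 87.2 CPM per kilobase of transcript (SD, n = 3), and Gpx4 (88.25 ± 19.2) was the next, with ranges that did not meet. Selenom (52.25 ± 7.35), Selenof (44.1 ± 10.3) and Selenop (42.1 ± 4.18) formed a group with overlapping ranges. Selenot (22.3 ± 4.51), Selenok (19.7 ± 4.58) and Gpx1 (15.6 ± 3.425) formed the next such group. Gpx3 (3.96 ± 0.3825) and Txnrd1 (3.11 ± 0.316) ended the order, and their ranges did not overlap. Per kilobase of coding sequence, the RPF order in brain was led by Selenok (89.9 ± 10.1) and Selenow (84.5 ± 4.375), whose ranges overlapped. In kidney the RPF order again began with Gpx3 (1486 ± 290.5 CPM per kilobase), Gpx1 (401 ± 61.2) and Selenop (290 ± 36.2), and ended with Selenow (19.6 ± 2.34) and Selenom (17.35 ± 2.955). RNA levels per kilobase of transcript and RPF levels per kilobase of coding sequence are different scales and are not compared here.

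**Figure D2:**
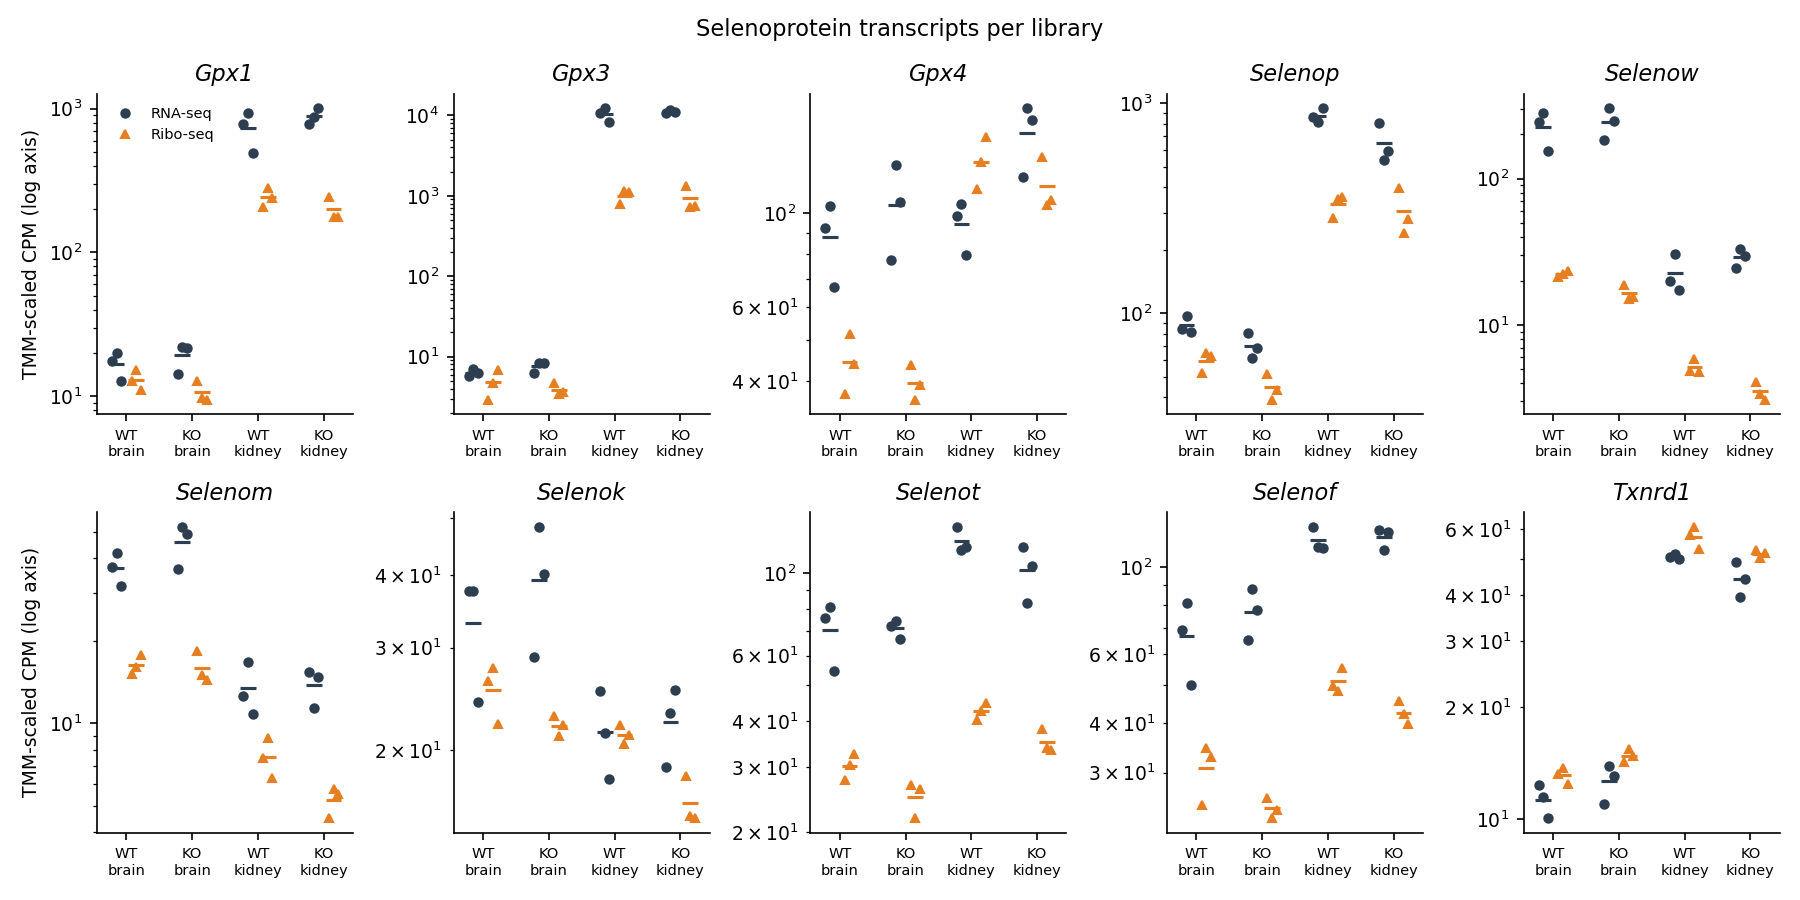
TMM-scaled CPM (log axis, each gene with its own range) of the 10 members in each library, with RNA-seq as dark circles, Ribo-seq as orange triangles and a short line at the mean of 3 libraries. Gpx1, Gpx3, Selenop and Txnrd1 lie far higher in kidney than in brain in both assays, Selenow and Selenom lie lower, and Gpx4 separates the tissues in Ribo-seq alone.

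WT kidney was set against WT brain, first in RNA. Of the 10 members, 6 were higher in kidney and 3 lower, with edgeR's quasi-likelihood test and a Benjamini-Hochberg adjusted p under 0.05. Of all 88731 transcripts tested, 64.1% were called (28.3% higher and 35.8% lower), so a call in itself is common between these tissues. The median log2 difference of the members was 0.84, and that of 16011 coding genes with 1 transcript each was 0.10. In RPFs 7 members were higher and 2 lower, with a median of 1.16 against 0.02 for 14929 coding genes, and 70.9% of all transcripts were called (35% higher and 35.8% lower). The size of a tissue difference in a bulk sample cannot tell more cells of a type from more RNA per cell.

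Among the glutathione peroxidases, Gpx3 had the largest difference. Its RNA level was 10810, 12310 and 8377 CPM in the WT kidney libraries and 5.76, 6.97 and 6.22 CPM in WT brain. RPFs were 781, 1131 and 1111 CPM in kidney and 2.92, 4.67 and 6.86 CPM in brain. The tissues were thus widely separated in both assays, with log2 differences of 10.74 (SE 0.39, adjusted p = 1.1e-08) in RNA and 7.69 (SE 0.31, adjusted p = 4.1e-11) in RPFs. Gpx1, the abundant cytosolic enzyme that reduces hydrogen peroxide, was at 787, 931.5 and 491 CPM in kidney RNA and at 17.4, 20.0 and 12.7 CPM in brain RNA. Its log2 difference was 5.505 (SE 0.33, adjusted p = 2.3e-07) in RNA and 4.23 (SE 0.18, adjusted p = 6.5e-11) in RPFs. Gpx1 is also abundant in red blood cells, and 5 blood markers summed to 615 to 2236 CPM in WT brain RNA and 181 to 312 CPM in WT kidney RNA; their part in these levels was not tested.

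Gpx4, which reduces lipid hydroperoxides in membranes and protects cells from ferroptosis, behaved differently from its relatives. Its RNA was at 98.5, 105 and 79.8 CPM in WT kidney and at 92.3, 104 and 66.8 CPM in WT brain, and the libraries of the tissues overlapped. The log2 difference of RNA was 0.14 (SE 0.20, adjusted p = 0.56), while between the KO libraries it was 0.65 (SE 0.23, adjusted p = 0.0329). In RPFs, however, kidney had 114, 132.5 and 152 CPM and brain 37.1, 51.8 and 43.8 CPM, with no overlap and a log2 difference of 1.58 (SE 0.16, adjusted p = 6.3e-07). Gpx4 shares 38.6% of its 28-base words with Gpx4-ps2, a pseudogene, and multimapping reads were allowed, so its counts may include reads of that copy. The values are of 1 of the 3 coding transcripts of Gpx4, the one with the longest protein.

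Txnrd1, the cytosolic thioredoxin reductase, moved nearly alike in the 2 assays. Its RNA was at 50.6, 51.45 and 50.0 CPM in kidney against 12.3, 11.5 and 10.0 CPM in brain, a log2 difference of 2.20 (SE 0.15, adjusted p = 6.8e-07). The RPF difference was 2.13 (SE 0.13, adjusted p = 3e-09). Selenop, which carries selenium to other tissues through the blood, had 857, 816 and 949 CPM of RNA in kidney and 84.3, 97.6 and 81.3 CPM in brain. Its libraries were separated by tissue, with a log2 difference of 3.35 (SE 0.19, adjusted p = 1.8e-07) in RNA and 2.465 (SE 0.15, adjusted p = 4e-09) in RPFs. The gene Selenop overlaps Ccdc152 at its 3′ end on the opposite strand, and Txnrd1 holds Eid3 on its own strand, so reads of these neighbours may be counted with them.

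Selenow and Selenom were lower in kidney. Selenow RNA was at 19.8, 30.4 and 17.4 CPM in kidney and 244, 279.5 and 155 CPM in brain, and its RPFs were at 4.86, 5.89 and 4.79 CPM against 21.1, 22.4 and 23.4 CPM. Brain was above kidney in every library, with log2 differences of -3.28 (SE 0.30, adjusted p = 5e-06) and -2.12 (SE 0.14, adjusted p = 6.3e-09). Selenom, a thioredoxin-fold protein of the endoplasmic reticulum (ER), fell by 1.42 on the log2 scale in RNA (SE 0.21, adjusted p = 1.6e-04) and by 1.12 in RPFs (SE 0.15, adjusted p = 1.1e-05).

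The other ER proteins differed by less. Selenot, a thioredoxin-fold protein of the ER membrane, was higher in kidney by 0.83 (SE 0.19, adjusted p = 0.0028) in RNA and 0.49 (SE 0.12, adjusted p = 0.0031) in RPFs on the log2 scale. Selenof, which works beside the folding sensor UGGT, was higher by 0.85 (SE 0.195, adjusted p = 0.0033) in RNA and 0.73 (SE 0.145, adjusted p = 4.5e-04) in RPFs. Selenok, an ER membrane protein that partners the palmitoyltransferase DHHC6, was at 25.2, 21.4 and 17.8 CPM of RNA in kidney and 37.5, 37.6 and 24.2 CPM in brain. Its libraries overlapped, and the RNA difference of -0.59 (SE 0.21, adjusted p = 0.033) was lost without WT brain RNA-seq library 1 or 2 (adjusted p = 0.0902 and 0.0871) and without WT kidney RNA-seq library 2 or 3 (0.0514 and 0.0632). Its RPF difference was -0.26 (SE 0.13, adjusted p = 0.091) with no overlap, and it passed without WT brain Ribo-seq library 3 (-0.36, adjusted p = 0.0298) and between the KO libraries (-0.44, adjusted p = 9.68e-04).

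**Figure D3:**
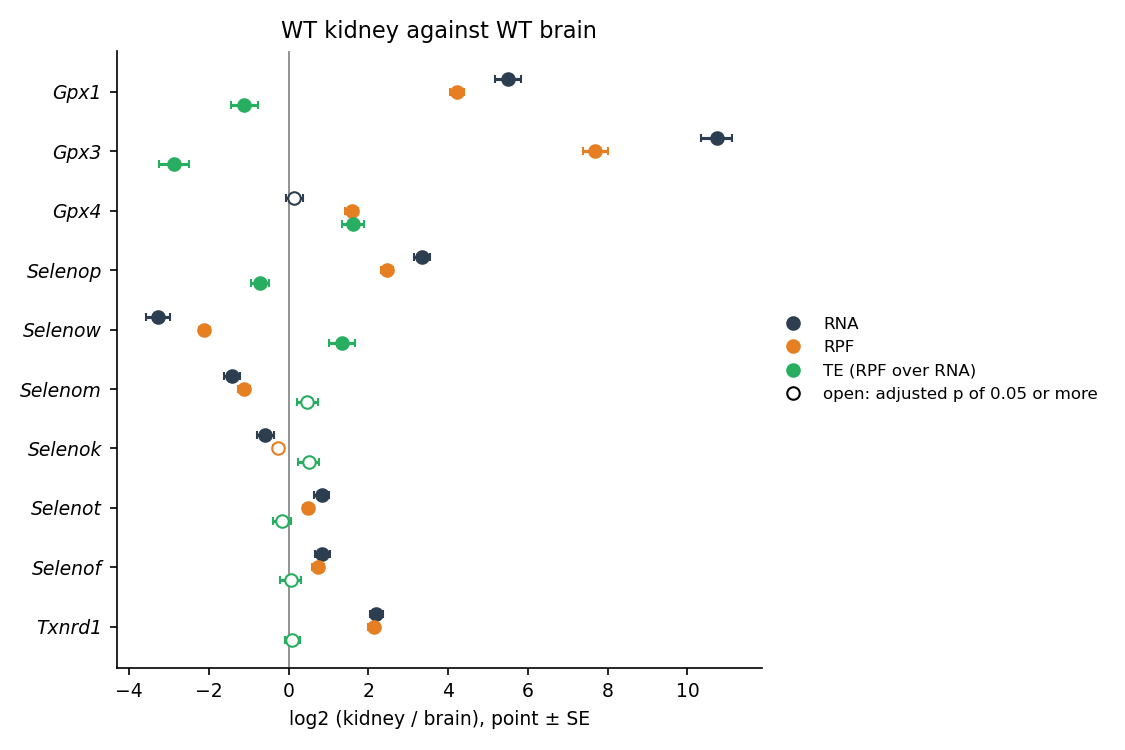
log2 difference of WT kidney against WT brain for RNA (dark), RPFs (orange) and TE, the RPF difference over and above that of RNA (green), as point and SE from edgeR with 3 libraries per group and assay; open points have an adjusted p of 0.05 or more. RNA and RPF points part most for Gpx3 (10.74 and 7.69), and for Gpx4 RNA lies near 0 while RPFs lie at 1.58.

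Translation efficiency (TE), the RPF level relative to RNA, was compared between the tissues as the assay by tissue term of a joint model. It was called for 5 of 10 members, 2 higher and 3 lower in kidney, against 19.9% of all 96684 transcripts (13.9% higher and 5.99% lower). The median of the members was 0.07 on the log2 scale, and of 16560 coding genes with 1 transcript each it was -0.02. The members therefore went both ways. TE in kidney was higher for Gpx4, by 1.61 (SE 0.27, adjusted p = 4.8e-04), and for Selenow, by 1.34 (SE 0.33, adjusted p = 0.0097). It was lower for Gpx3, with -2.87 (SE 0.38, adjusted p = 3.8e-05), for Gpx1, with -1.11 (SE 0.33, adjusted p = 0.028), and for Selenop, with -0.72 (SE 0.22, adjusted p = 0.031).

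In these 5 genes, the TE difference had the opposite sign to the RNA difference in Gpx1, Gpx3, Selenop and Selenow, so that RPFs set the tissues less far apart than RNA did. TE is computed with the RNA level as its divisor, so errors in RNA enter both values with opposite signs. The calls for Gpx3 and Gpx4 held whichever of the 12 libraries was left out, and between the KO libraries the TE difference of Gpx4 was 0.87 (SE 0.26, adjusted p = 0.0212). The call for Gpx1 was lost without WT brain RNA-seq library 3, WT kidney Ribo-seq library 1 or 3, or WT kidney RNA-seq library 1 or 2, with adjusted p of 0.0606, 0.0814, 0.058, 0.0636 and 0.0628. That for Selenop was lost without WT brain RNA-seq library 1, WT kidney Ribo-seq library 1 or 2, or WT kidney RNA-seq library 1, with 0.063, 0.1, 0.0525 and 0.0567, and also with counts summed per gene (0.0664) and between the KO libraries (-0.53, adjusted p = 0.15). That for Selenow was lost without WT brain Ribo-seq library 1 or 2 (0.0609 and 0.0506). Selenom, Selenok, Selenot, Selenof and Txnrd1 had TE differences from -0.175 to 0.50 and were not called, although in 2 of 22 alternatives each Selenok was, with counts summed per gene (0.75, adjusted p = 0.0156) and with 1 transcript per gene (0.67, adjusted p = 0.03), and Selenom was, with voom (0.63, adjusted p = 0.0155) and with 1 transcript per gene (0.65, adjusted p = 0.0442).

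The genes that make and serve selenoproteins were read in the same fits. Of 11 genes of selenocysteine synthesis and insertion, 6 had more RNA in kidney and 2 less, with a median of 0.88, and in RPFs 7 were higher and 2 lower, while TE was called by edgeR for 0, with 1 at an unadjusted p under 0.05. Scly, the lyase that frees selenium from selenocysteine, had the largest difference, with a mean of 34.4 CPM of RNA in kidney against 4.81 CPM in brain (log2 difference 2.87, SE 0.185, adjusted p = 3.9e-07). Sepsecs, which makes selenocysteine on its tRNA, was higher by 2.16 (SE 0.16, adjusted p = 1.1e-06), and Eefsec, the elongation factor, by 1.85 (SE 0.175, adjusted p = 7e-06). The receptors that take up Selenop divided by tissue. Lrp2 (megalin), the receptor of the proximal tubule, had 613 to 703 CPM of RNA in kidney and 0.177 to 0.374 CPM in brain. Lrp8 (ApoER2), the receptor in neurons, had 0.0208 to 0.128 CPM in kidney and 3.39 to 5.06 CPM in brain, and Lrp1 was also higher in brain (91.9 against 22.2 CPM on average).

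Of 14 other selenoproteins, 13 were tested in RNA, with 7 higher and 5 lower in kidney, and 11 in RPFs, with 6 higher and 3 lower. The deiodinases, which activate or inactivate thyroid hormone, were among them. Dio1 had a mean of 9.17 CPM of RNA in kidney and at most 0.0101 CPM in brain, and Dio2 had 0.386 CPM in kidney and 20.2 CPM in brain. Selenov had 0.334 to 0.482 CPM in WT brain and was at 0 in all 3 WT kidney libraries, which allows up to 0.0659 CPM (3 counts per library, for counting error only). Among 15 thioredoxin and glutathione partners, 13 had more RNA in kidney and 0 less (median 2.33), led by Gss, glutathione synthetase, at 4.45 (SE 0.18, adjusted p = 1.7e-08). Of 7 homologs without selenocysteine, 6 were tested in RNA, and 5 were higher. These counts stand beside the 64.1% of all transcripts called in RNA and 70.9% in RPFs, and the lists were not tested against each other.

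KO was compared with WT within each tissue. In kidney RNA, 0 of 10 members were called by edgeR, 2 had an unadjusted p under 0.05, and DESeq2 called 0, while edgeR called 0.00992% of all 70545 transcripts. Limma voom with quality weights called 5 members and 41.6% of all transcripts. The median log2 fold change was 0.06. Gpx4 was at 122, 178 and 167 CPM in KO against 98.5, 105 and 79.8 CPM in WT, with no overlap (log2 fold change 0.73, SE 0.19, adjusted p = 0.29). Selenop was at 808, 534 and 591.5 CPM in KO against 857, 816 and 949 CPM in WT, also with no overlap (-0.44, SE 0.18, adjusted p = 0.29). For both genes the KO libraries far from WT were 2 and 3, those rich in mitochondrial rRNA. Without these 2 libraries the values were 0.36 (SE 0.23) and -0.12 (SE 0.21), from 1 KO library that is assumed to vary as the WT libraries do. Without KO library 1 they were 0.89 (adjusted p = 0.015) and -0.62 (adjusted p = 0.0273), and 17% of 73294 transcripts were then called. In brain RNA, 0 of 10 members were called, 1 had an unadjusted p under 0.05, and DESeq2 and voom called 0, against 0.0134% of all transcripts. That gene was Selenop, with 80.6, 61.4 and 68.1 CPM in KO against 84.3, 97.6 and 81.3 CPM in WT (-0.36, SE 0.14, adjusted p = 0.9).

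RPFs gave a more uniform picture. In kidney all 10 members had a fitted fold change below 0, from -0.62 to -0.13 with a median of -0.30, while 52.5% of 13454 coding genes lay below 0 and their median was -0.02. In brain 9 of 10 lay below 0, with a median of -0.31, while 54.4% of 14465 coding genes did and their median was -0.03. These are counts of signs, and most single members did not pass the test. Without KO kidney Ribo-seq library 2, Gpx3 and Selenop stood just above 0 (0.02 each). Markers of cell types moved in the same kidney libraries. The 8 tubule genes summed to 3040 to 3500 CPM in WT and 3686 to 4886 CPM in KO RPFs. Their fold changes ran from -0.52 to 0.82, with 6 above 0 and 2 below, and 7 had an unadjusted p under 0.05. Only Slc12a1, the sodium, potassium and chloride transporter of the thick ascending limb, was called, higher at 0.82 (SE 0.13, adjusted p = 0.0065). The 6 pancreas genes summed to 1.94 to 110 CPM in WT and 1.24 to 1.79 CPM in KO, and both that were tested were called lower. The part of these cell types in the members' values was not tested. Short proteins had lower RPF fold changes in these libraries, and 7 of the 10 members have at most 250 residues in the transcript shown. Among coding genes with proteins of at most 250 residues the median was -0.22 in kidney (2733 genes) and -0.16 in brain (2852 genes), and with at most 100 residues it was -0.29 and -0.23. How much of the members' values goes with their length was not tested.

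In kidney RPFs 2 of 10 members were called, both lower in KO, against 7.76% of all 75266 transcripts (3.01% lower and 4.75% higher). Selenow fell by 0.62 on the log2 scale (SE 0.16, adjusted p = 0.035), from 4.86, 5.89 and 4.79 CPM in WT to 4.10, 3.385 and 3.08 CPM in KO. Selenok fell by 0.425 (SE 0.11, adjusted p = 0.032), from 22.1, 20.45 and 21.2 CPM to 18.0, 15.4 and 15.3 CPM. The genotypes did not overlap for either gene, the shortest of the 10. The counts behind Selenow were small, from 40 to 138 reads per kidney library. Both calls were lost when WT library 1 or 2 or KO library 2 or 3 was left out, with adjusted p from 0.0693 to 0.177 for Selenow and from 0.0633 to 0.154 for Selenok, and both were also lost with DESeq2 (0.078 and 0.0556) and with counts summed per gene (0.141 and 0.0819).

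The remaining members followed with smaller values. Selenom, at 7.46, 8.87 and 6.31 CPM in WT and 4.51, 5.765 and 5.54 CPM in KO, had -0.50 (SE 0.15, adjusted p = 0.054) and passed with voom (-0.51, adjusted p = 0.0219), with no filter beyond 1 count (-0.46, adjusted p = 0.0353) and without WT library 3 (-0.59, adjusted p = 0.0244), when 7.3% of all transcripts were called. Selenot (-0.30, SE 0.105, adjusted p = 0.093) and Selenof (-0.29, SE 0.11, adjusted p = 0.11) also had genotypes that did not overlap. For Gpx1 (-0.30, SE 0.16), Gpx3 (-0.14, SE 0.24), Gpx4 (-0.21, SE 0.14) and Selenop (-0.13, SE 0.18), KO library 1 lay within or above the WT libraries, and KO libraries 2 and 3 were lower. For example, Gpx3 RPFs in KO were 1314, 720.5 and 742 CPM. Txnrd1 was the closest to WT among the genes that did not overlap (-0.17, SE 0.105, adjusted p = 0.32).

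**Figure D4:**
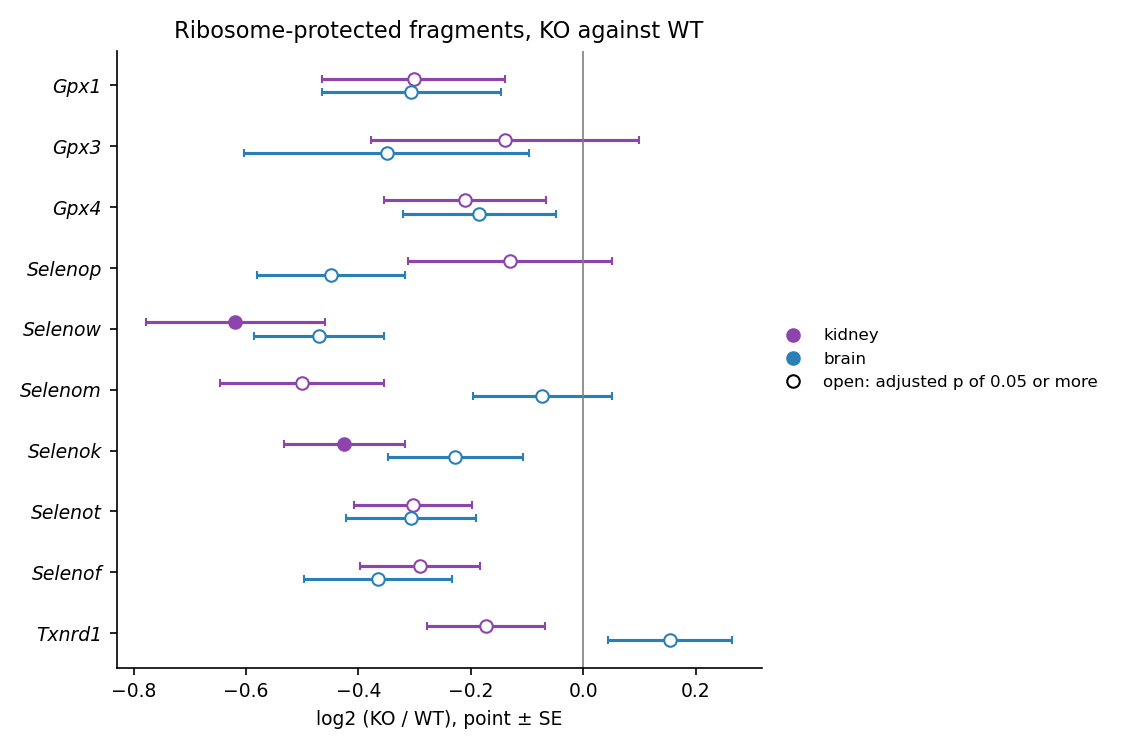
log2 fold change of RPFs in KO against WT for kidney (purple) and brain (blue), as point and SE from edgeR with 3 libraries per group; open points have an adjusted p of 0.05 or more. All kidney points and 9 of 10 brain points lie left of 0, and the filled ones are kidney Selenow (-0.62) and Selenok (-0.425).

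In brain RPFs 0 of 10 members were called by edgeR, with 4 at an unadjusted p under 0.05 and 0 called by voom, against 0.0345% of all transcripts. DESeq2 called 2, Selenow and Selenop, and 0.478% of all transcripts. Selenow had 18.8, 15.1 and 15.5 CPM in KO against 21.1, 22.4 and 23.4 CPM in WT (-0.47, SE 0.12, adjusted p = 0.2, and 0.0384 with DESeq2). Selenop had 51.6, 38.8 and 43.2 CPM against 51.9, 64.5 and 62.3 CPM (-0.45, SE 0.13, adjusted p = 0.25, and 0.0434 with DESeq2). In both, every KO library lay below every WT library, for Selenop by very little. The 5 blood markers moved with genotype in brain Ribo-seq, with sums of 602 to 1694 CPM in WT and 332 to 433 CPM in KO, and their part in these differences was not tested. Txnrd1 alone was above 0, at 0.15 (SE 0.11, adjusted p = 0.59).

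TE of KO against WT was called by edgeR for 0 of 10 members in either tissue. It was called for 0% of all 89685 transcripts in kidney and 0% of 98861 in brain. The paper, which tested TE with RiboDiff, reports that a substantial number of transcripts changed significantly in both tissues. RiboDiff was not used here. At an unadjusted p under 0.05 there were 16939 transcripts in kidney and 4677 in brain, and DESeq2 called 4089 and 18, voom 26780 and 193. In kidney 8 of 10 members were below 0 (median -0.40, against 59.3% of coding genes below 0), and in brain 9 of 10 (median -0.38, against 61.3%). The median of all coding genes was -0.13 in kidney and -0.09 in brain. Among those with proteins of at most 250 residues it was -0.42 in kidney and -0.29 in brain. The part of length in the members' TE values was not tested. The lowest values in kidney were Selenow at -0.96 (SE 0.32, adjusted p = 0.16) and Gpx4 at -0.94 (SE 0.26, adjusted p = 0.13). These were the 2 members with an unadjusted p under 0.05. Gpx4 was called by DESeq2 (-1.03, adjusted p = 0.0351), which called 4.56% of all transcripts, and voom called Gpx1, Gpx4, Selenow, Selenom and Selenok, and 29.9% of all transcripts. Without KO RNA-seq library 1, edgeR called Gpx4 (-1.07, adjusted p = 0.0105), Selenow (-1.07, adjusted p = 0.0352) and 17.8% of 91865 transcripts. Without KO RNA-seq libraries 2 and 3, with 1 KO RNA-seq library left, Gpx4 stood at -0.60 (SE 0.29). In brain the range was -0.55 to 0.06, with 0 members at an unadjusted p under 0.05.

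The KO effects of kidney and brain were compared as the tissue by genotype term, and 0 of 10 members were called in RNA (0.00108% of all 92865 transcripts) or in RPFs (0.0767% of 88666), by edgeR, DESeq2 or voom. At an unadjusted p under 0.05 there were 0 members in RNA and 2 in RPFs. These were Selenom (-0.43, SE 0.20, adjusted p = 0.64) and Txnrd1 (-0.34, SE 0.14, adjusted p = 0.6), for which kidney had the lower fold change.

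The genes that serve selenoproteins were also read in kidney RPFs of KO against WT, where 7.76% of all 75266 transcripts were called. Of 11 genes of selenocysteine synthesis and insertion edgeR called 0, with 2 at an unadjusted p under 0.05. Of 14 other selenoproteins 10 were tested, and Txnrd3, the thioredoxin-glutathione reductase, was called higher (13.7 against 10.4 CPM on average, log2 fold change 0.38, SE 0.10, adjusted p = 0.041). Of 15 partners, all tested, Srxn1, sulfiredoxin, was called lower (-0.55, SE 0.15, adjusted p = 0.044). Of the 3 Selenop receptors, Lrp1 (4545 residues) and Lrp2 (4660 residues) are very long proteins. Lrp8 (996 residues) had a log2 fold change of -0.37 and was not called. Lrp1 had 90.5 to 155 CPM in KO against 36.0 to 84.9 CPM in WT (1.08, SE 0.25, adjusted p = 0.025), and Lrp2 had 2260 to 2470 CPM against 1390 to 1700 CPM (0.62, SE 0.17, adjusted p = 0.046). The median of the members (-0.30) was below that of the other selenoproteins (-0.07), the insertion genes (-0.02) and the partners (-0.12), with no test of these differences. The lists were not matched for protein length, with which the fold change rose over 13454 coding genes (Spearman correlation 0.42). These lists and that of the homologs without selenocysteine hold 50 genes. Of these, 44 were tested in brain RPFs, 45 in kidney RNA and 47 in brain RNA. In these 3 comparisons edgeR called 0. At an unadjusted p under 0.05 there were 2 in brain RPFs, 10 in kidney RNA and 3 in brain RNA. Of all transcripts there were 10214 of 81112, 11881 of 70545 and 3087 of 89237.

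Disome-seq was available for kidney, and disome counts of WT were set against WT RPFs in 1 model. A positive value means that a gene takes a larger share of disomes than of single-ribosome footprints. Of 10 members, 7 were called, 1 higher and 6 lower, against 50.7% of all 64608 transcripts (25.3% higher and 25.3% lower). The median of the members was -0.52, and that of 12012 coding genes was -0.16. Selenok was the member that stood out. It had 69.15, 60.5 and 63.45 CPM in the disome libraries, from 200, 178 and 70 reads, and 22.1, 20.45 and 21.2 CPM in Ribo-seq. Every disome value was thus well above every RPF value, with a log2 difference of 1.64 (SE 0.14, adjusted p = 8e-08), at percentile 94.2 of coding genes. In KO libraries in place of WT the difference was 1.85 (SE 0.14, adjusted p = 7.08e-10), and over all 15 alternatives it ran from 1.48 to 1.85 and was called each time.

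Most other members went the opposite way. Selenot had the lowest value, with 16.6, 7.82 and 13.6 CPM in disome-seq against 40.3, 42.6 and 44.7 CPM in Ribo-seq (-1.72, SE 0.21, adjusted p = 4.4e-06), from 15 to 48 disome reads. Selenof (-1.28, SE 0.17, adjusted p = 1e-05), Selenop (-1.18, SE 0.145, adjusted p = 5.4e-06) and Gpx1 (-1.09, SE 0.15, adjusted p = 1.6e-05) were likewise lower. Selenop, the member with 10 UGA codons, stood at percentile 14.9 of coding genes. Txnrd1 was at -0.57 (SE 0.14, adjusted p = 0.0034). Gpx4, at -0.41 (SE 0.16, adjusted p = 0.04), lost its call without WT Ribo-seq library 2 or 3 (adjusted p = 0.0785 and 0.135) or disome-seq library 1 or 2 (0.0597 and 0.174), and with counts summed per gene it was -0.23 (0.254). Gpx3 (0.18, SE 0.19, adjusted p = 0.45), Selenom (0.06, SE 0.23, adjusted p = 0.85) and Selenow (-0.47, SE 0.29, adjusted p = 0.19) were not called, and Selenow rested on 4 to 11 disome reads per WT library.

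**Figure D5:**
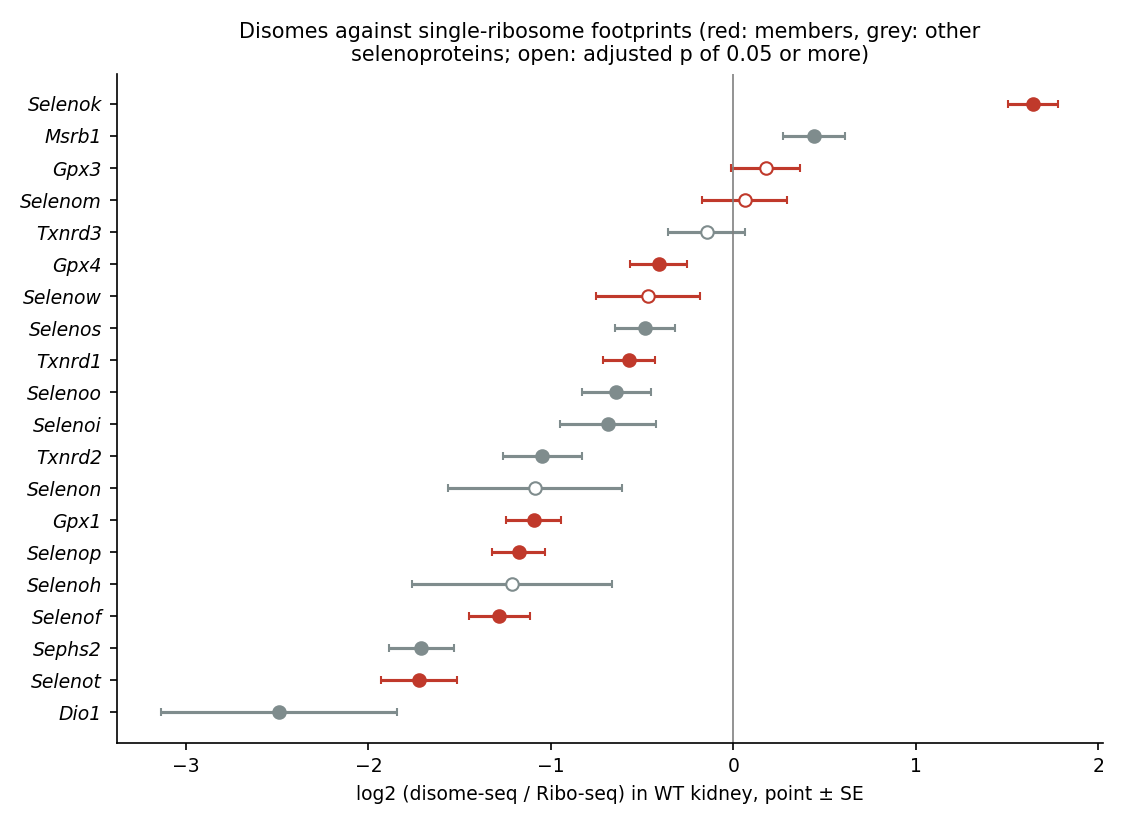
log2 difference of disome-seq against Ribo-seq in WT kidney for the 10 members (red) and the other selenoproteins that could be tested (grey), as point and SE from edgeR with 3 libraries per assay; open points have an adjusted p of 0.05 or more. Selenok lies at 1.64, far right of the next gene, Msrb1, at 0.44.

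Selenok and Txnrd1 both end 1 or 2 codons after their UGA, and they stood at 1.64 and -0.57. The paper's methods leave a few codons at either end of the coding sequence out of the analysis, a stretch that takes in both of these UGA codons. Whether the deposited mouse counts also leave them out is not given in the sources used here. Footprints at the UGA of these genes may therefore not be among the reads counted. Of the other selenoproteins with a UGA within 2 codons of the stop, Txnrd3 was at -0.15 (SE 0.21), Selenos at -0.48 (SE 0.165), Selenoo at -0.64 (SE 0.19) and Txnrd2 at -1.05 (SE 0.215). The median of coding genes with proteins of at most 100 residues was -0.16 (258 genes, with a 90th percentile of 1.04). The relation of these values to the place of the UGA or to length was not tested. Counts per transcript hold no position, so whether the disomes of Selenok lie at its UGA, at its stop codon or elsewhere cannot be told. Parts of Selenok also occur in processed pseudogenes, which share up to 6.89% of its 28-base words. Of the 11 insertion genes 3 were called higher and 4 lower (median -0.14), beside 50.7% of all transcripts called. Secisbp2 (1.86, SE 0.155, adjusted p = 7.8e-08) and Rpl30, a ribosomal protein that also binds SECIS elements (1.84, SE 0.23, adjusted p = 6.1e-06), were higher, and Trnau1ap, which binds the selenocysteine tRNA (-1.27, SE 0.34, adjusted p = 0.0053), was lower.

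In KO against WT disome-seq, 9 of 10 members could be tested, Selenow being too low. Of these 0 were called by edgeR, DESeq2 or voom, 4 had an unadjusted p under 0.05, and 0.201% of all 34754 transcripts were called. All 9 were below 0, from -0.57 to -0.14 with a median of -0.39. Selenof, for instance, had 14.85, 13.0 and 12.7 CPM in KO against 23.5, 16.0 and 22.7 CPM in WT, with no overlap (-0.57, SE 0.24, adjusted p = 0.38). Selenok had 56.2, 47.9 and 57.5 CPM against 69.15, 60.5 and 63.45 CPM (-0.26, SE 0.17, adjusted p = 0.59). The median of 7773 coding genes was -0.0. Among those with proteins of at most 250 residues it was -0.22, and with at most 100 residues -0.34. The fold change rose with protein length (Spearman correlation 0.35), and the part of length in the members' values was not tested. The 5 blood markers summed to 288 to 321.5 CPM in WT and 159.5 to 231 CPM in KO disome-seq, and the 4 that were tested were all at an unadjusted p under 0.05 (median -0.67). Their part in the members' values was not tested. Relative to RPFs the KO effect on disomes was called for 0 of 10 members and 0% of 67065 transcripts, with 0 members and 3916 transcripts at an unadjusted p under 0.05, and 10 transcripts called by DESeq2 and 2 by voom. The members' values ran from -0.25 to 0.19 around a median of -0.02, with Selenok at 0.19 (SE 0.19) and Selenop at -0.23 (SE 0.24).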

How the data were processed

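RNA-seq, Ribo-seq and disome-seq counts of mouse kidney and brain were used. The authors trimmed reads with cutadapt and the FASTX Toolkit, removed rRNA reads, aligned the rest with STAR to the mouse transcriptome and genome (mm10) with multimapping reads allowed, and deposited raw counts per transcript made with featureCounts. Tool versions, the strand setting and whether codons at the ends of coding sequences were left out of the mouse counts are not given in the sources used here. A read that fits several transcripts can be counted in each. A further table lists human transcripts under 28 columns named with mouse titles, so it was not used, and the HEK293T samples were not analysed here.

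Of 142604 transcripts, 141374 matched GENCODE M21 (GRCm38), from which lengths, positions and selenocysteine codons were taken. Each gene was shown by 1 transcript, the one with the longest protein. The 10 members and the gene lists were chosen with earlier results of these data known. All members were described in every comparison, and from each list up to 3 called genes were named, those with the largest change whose libraries did not overlap. No list was tested as a set. Of the marker lists, pancreas genes (6) summed to 110 CPM in WT kidney Ribo-seq library 1 and to 9.73 CPM or less in the other kidney Ribo-seq libraries, and adipose genes (5) to 30.6 to 109 CPM in WT and 34.0 to 78.8 CPM in KO kidney Ribo-seq.

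Each comparison was fitted on all transcripts with edgeR 4.0.16 (filterByExpr, TMM, quasi-likelihood F-test) and Benjamini-Hochberg adjustment with a threshold of 0.05. SE was taken as |log2 fold change| divided by √F. TE differences, the KO effect on disomes relative to RPFs and the tissue by genotype terms were interactions in joint models. WT disomes against WT RPFs were the assay term of a model of the WT kidney libraries. The script was tested on simulated counts. Alternatives were DESeq2 1.42.0, voom with quality weights (limma 3.58.1), library size alone, other filters, counts summed per gene, 1 transcript per gene, a replicate block, KO libraries in place of WT, and each library left out in turn. Leaving out KO kidney RNA-seq libraries 2 and 3 together was chosen after seeing the data. Replicate numbers in the labels pair no mice. Deviations of same-numbered libraries correlated above 0.1 in every pair for WT and KO disome-seq (0.112 to 0.263), WT kidney disome-seq and Ribo-seq (0.261 to 0.337) and WT brain Ribo-seq and RNA-seq (0.135 to 0.289), and the block changed no count of members called in those comparisons. Libraries of a group are taken as separate mice, which the labels do not state outright, and p-values measure the spread between libraries. Fits ran in R 4.3.3 and tables and figures in Python 3.11.15 (pandas 2.3.3, matplotlib 3.10.9).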

Additional observations from a re-analysis of the deposited data

How the results depend on the processing

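Of 243 recounts of members called under an alternative, 226 stayed within 1.5 times the reported count or, where that count was 0, stayed at 0. The reported count was 0 in every comparison of KO with WT except kidney RPFs. Few or no transcripts were called there in most cases, so a count that stayed at 0 says little about how firm the results are. The calls in kidney RPFs of KO against WT were the least firm: the 2 members called became 0 with DESeq2, 0 with counts summed per gene, 1 with 1 transcript per gene, 1 with the replicate block (Selenow at -0.60, adjusted p = 0.0583) and 4 with voom, and ran from 0 to 3 with each library left out. In kidney RNA of KO against WT, 0 became 5 with voom and 0 to 2 with a library left out. In kidney TE of KO against WT, 0 became 1 with DESeq2, 5 with voom and 0 to 2 with a library left out. In brain RPFs 0 became 2 with DESeq2, and the 5 called in TE of kidney against brain became 3 to 5 with a library left out. The causes were not tested. The replicate block moved no other count of calls by more than 1.5 times. Of 2403 values of single members, 2333 kept their side of the threshold, 38 lost a call, 32 gained one and 0 called values changed sign, while 141 uncalled values changed sign and were not counted as reversals. RPF levels per kilobase of transcript in place of coding sequence moved by more than 1 SD for all 20 values compared, so the order of footprint levels depends on that choice. Disome libraries were the shallowest, and Selenow, Selenom and Selenot had fewer than 50 reads in each.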
